A study of Mus musculus with 18 samples.

Results

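The transcripts of 8 genes that place, maintain or help to target DNA methylation were followed in single mouse embryos. The genes were the DNA methyltransferases Dnmt1, Dnmt3a and Dnmt3b, their catalytically inactive relative Dnmt3l, the maintenance cofactor Uhrf1, and Hells, Cdca7 and Zbtb24. They were taken by symbol from a table of 34244 named genes, and all 8 were found in it. RNA-seq was made from whole embryos at E11.5 of FVB mice, with 1 library from each of 9 embryos. Of these, 3 were labelled Dnmt3b+/+, 3 Dnmt3b-/- and 3 Dnmt3b CI/CI, where CI stands for catalytically inactive. The Dnmt3b-/- embryos carried a conventional null allele derived from Dnmt3b 2loxP mice, and the Dnmt3b CI/CI embryos carried on both alleles a change of 2 residues in the catalytic site, made by CRISPR/Cas9 repair of the endogenous gene. The labels name no treatment. Litter and sex are not given in the sources used here. By the paper, embryos came from natural matings of Dnmt3b+/- and of Dnmt3b+/CI mice. Genotype and cross thus cannot be told apart between the null and CI embryos. A whole embryo holds many tissues, so fewer cells of a type and less RNA per cell cannot be told apart in any value below.

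In mammals a CpG is methylated by 2 kinds of enzyme. Dnmt3a and Dnmt3b place new methyl groups, mainly in the early embryo, while Dnmt1 copies methylation onto the new DNA strand after replication, guided by Uhrf1, which binds hemimethylated CpGs. Dnmt3l has no catalytic activity and stimulates the de novo enzymes, above all in germ cells. In people, mutations in DNMT3B, ZBTB24, CDCA7 or HELLS cause ICF syndrome, a recessive disorder of immunodeficiency, centromeric instability and facial anomalies in which pericentromeric repeats lose methylation. Hells is a chromatin remodeler of the SNF2 family, Cdca7 is the zinc finger protein that recruits and activates it, and Zbtb24 is a transcription factor known to bind the Cdca7 promoter.

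The alleles under comparison differ in Dnmt3b itself, and the genotyping primers of the CI allele show where. They are printed 5′ to 3′, and the capitals in the second mark the 5 bases that differ from the reference, which is the sequence that replaces the catalytic residues.
Dnmt3b-F1, wild-type allele: gtgattggtggaagcccatg
Dnmt3b-F2, CI allele: tgattggtggaagcGTCGA
Dnmt3bCI-R, common reverse primer: gggaacagcacaggaggaca
In GRCm38.p6 the first lies at chr2:153677198-153677217 and the second at chr2:153677199-153677217, both on the plus strand, in a coding exon shared by all 10 protein-coding Dnmt3b transcripts of the annotation. The reverse primer lies at chr2:153677484-153677503 on the minus strand, in the following intron, which gives a product of 306 bases from the wild-type allele and 305 from the CI allele. The gene spans chr2:153649450-153687730. Neither the null allele nor the 5 changed bases can be read from the deposited values, which are 1 sum per gene.

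The values were deposited in FPKM (fragments per kilobase of exon, scaled to the size of the library), which allows levels of different genes to be compared within an embryo. The totals behind them ran from 38451729 to 49808777 reads per library. Every member came out as a whole number of reads in all 9 libraries, so the depth behind each value is known. Dnmt1 rested on 6897 to 10774 reads per embryo, Dnmt3a on 8016 to 12067, Uhrf1 on 4519 to 9535, Cdca7 on 1927 to 3286, Hells on 1084 to 2146, Dnmt3b on 408 to 689 and Zbtb24 on 391 to 558. Counting error (1 SD) was thus at most 5.06% in these 7 genes. Dnmt3l had 0 to 3 reads. Dnmt3a shares 133 bases of its exons with the antisense gene Dnmt3aos, and Dnmt3l shares 67 with Aire on the other strand, and whether reads were counted by strand is not given in the sources used here.

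One library stood apart. Dnmt3b+/+ embryo 2 had almost no signal of liver genes, with 0.103 FPKM of Alb, the gene of serum albumin, against 85.7 and 43.7 FPKM in Dnmt3b+/+ embryos 1 and 3 and 9.67 to 59.9 FPKM in the other 6. Afp (0.119 FPKM), Apoa1 (0.0325), Fgb (0.00474) and Hnf4a (0.00416) were likewise the lowest of the 9 there, as were Klf1 (0.446) and Gata1 (0.115), factors of red cell precursors, whereas Ttr, the last of the 6 hepatocyte markers, was highest (35.5). The same embryo was the lowest of the Dnmt3b+/+ set in 6 members and the highest of all in the summed neuronal markers. Without it, the log2 difference between embryos labelled Dnmt3b-/- and Dnmt3b+/+ was 0.33 for Dnmt1 (adjusted p = 0.0222), 0.64 for Uhrf1 (0.00823), 0.58 for Hells (0.0204) and −0.32 for Dnmt3a (0.0325), all by limma, while Dnmt3b (0.44, 0.0637) and Cdca7 (0.36, 0.101) did not pass, so that 4 members were called. In Dnmt3b CI/CI against Dnmt3b+/+ none passed without it either, where 0.129% of all tested genes did. Its part in the other results was not tested beyond the values given beside them.

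Dnmt3b, the targeted gene, was examined first. In Dnmt3b+/+ embryos 1, 2 and 3 its level was 2.25, 1.62 and 2.04 FPKM. In those labelled Dnmt3b-/- it was 2.45, 3.12 and 3.33 FPKM, and in Dnmt3b CI/CI 2.06, 1.98 and 2.32 FPKM. All 3 embryos labelled Dnmt3b-/- therefore lay above all 3 Dnmt3b+/+ embryos, although embryo 1 of the former was close to embryo 1 of the latter. The difference was 0.57 ± 0.15 (SE) on the log2(FPKM + 0.1) scale, or 1.48-fold (limma, adjusted p = 0.0248). The null label was thus not matched by a loss of transcript over the whole gene. Reads over the part of the gene removed in the null allele cannot be separated from the rest, so the summed value does not test the deletion. These libraries are named by their label throughout. The higher level was called under 15 of 20 alternatives. It did not pass the test without Dnmt3b+/+ embryo 2 (0.44, adjusted p = 0.0637) or 3 (0.60, adjusted p = 0.0587), or without embryo 2 (0.53, adjusted p = 0.0844) or 3 (0.48, adjusted p = 0.0836) labelled Dnmt3b-/-.

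**Figure D1:**
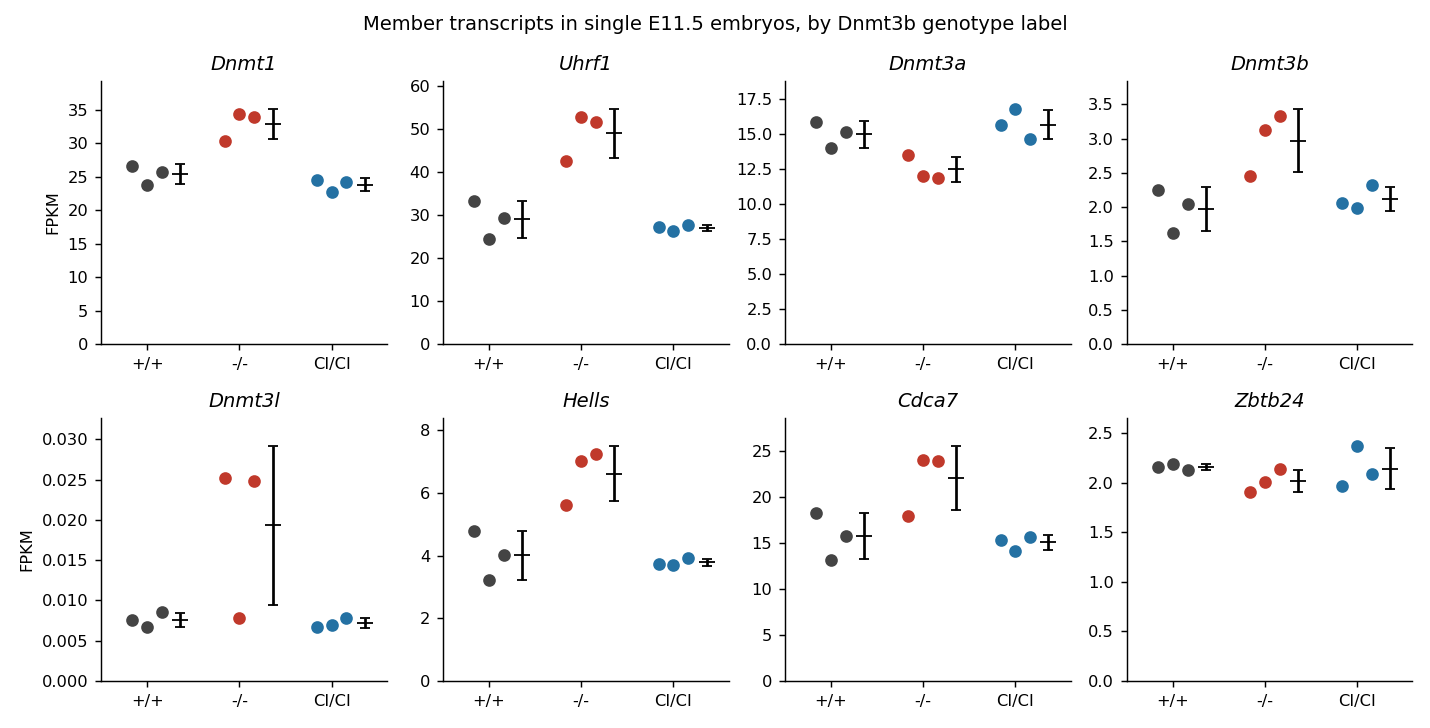
Level of each gene in FPKM (y axis, from 0) in the 9 embryos, grouped by genotype label; each point is 1 embryo, in the order 1, 2 and 3 from left to right, and the bar beside the points is the mean ± SD of 3. Dnmt1, Uhrf1, Hells and Dnmt3b lay higher in every embryo labelled Dnmt3b-/- than in any Dnmt3b+/+ embryo, Dnmt3a lay lower, and Zbtb24 stayed between 1.91 and 2.37 FPKM in all 9.

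Of the 7 members that passed the filter on low values (at least 0.1 FPKM in at least 3 embryos), 5 were higher and 1 was lower in embryos labelled Dnmt3b-/- than in Dnmt3b+/+ at an adjusted p under 0.05. Among all 19397 tested genes, 25.8% passed this test, 9.41% being higher and 16.4% lower. These shares depend on scaling, since 36.5% of all passing genes were higher on the deposited scale, 50.2% after median-of-ratios scaling and 52.2% after quantile normalization. The embryos of the 2 groups did not overlap for 4 members that were higher and 1 that was lower, where 15.1% and 23.8% of the tested genes were so. None of the members had a fold of at least 2, where 4.45% of the tested genes passed the test with such a fold. At a share this small, finding none among 7 genes does not set the members apart. Leaving out Dnmt3b+/+ embryo 3, or embryo 2 or 3 labelled Dnmt3b-/-, brought the count of members from 6 to 3 each time, and the share of all tested genes that passed to 14.9%, 12.6% and 14.5%. Without Dnmt3b+/+ embryo 2 that share was 17.9%, with 5.98% higher. Dnmt1, Uhrf1 and Hells passed under each of the 20 alternative settings.

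The maintenance pair were both higher. Dnmt1, the maintenance methyltransferase, stood at 26.6, 23.8 and 25.8 FPKM in Dnmt3b+/+ embryos and at 30.4, 34.4 and 34.0 FPKM in those labelled Dnmt3b-/-. The 2 sets did not overlap, and the difference of 0.37 ± 0.07 (SE) on the log2 scale, or 1.29-fold, passed the test (limma, adjusted p = 0.00741). Uhrf1, the reader of hemimethylated DNA that brings Dnmt1 to the replication fork, had the largest difference of the 7, except after quantile normalization (0.65, against 0.78 for Hells and 0.70 for Dnmt3b). It measured 33.2, 24.5 and 29.4 FPKM in Dnmt3b+/+ and 42.5, 52.7 and 51.7 FPKM in embryos labelled Dnmt3b-/-. Again no embryo overlapped, with a log2 difference of 0.76 ± 0.12 (SE), or 1.69-fold (limma, adjusted p = 0.00376).

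Dnmt3a, the other de novo enzyme, was the only member that was lower. Its level was 15.9, 14.0 and 15.2 FPKM in Dnmt3b+/+ embryos and 13.5, 12.0 and 11.9 FPKM in embryos labelled Dnmt3b-/-. The sets did not overlap, but embryo 1 of the second set came close to embryo 2 of the first. The log2 difference was −0.27 ± 0.08 (SE), which is 0.829-fold (limma, adjusted p = 0.032). The call was lost under 10 of 20 alternatives. After median-of-ratios scaling the difference was −0.20 (adjusted p = 0.0599), and it also missed the threshold without Dnmt3b+/+ embryo 1 (adjusted p = 0.0846) or 3 (0.0882), without embryo 2 (0.104) or 3 (0.102) labelled Dnmt3b-/-, and without Dnmt3b CI/CI embryo 1 (0.0529).

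Dnmt3l was at the detection floor in every embryo. It had 1 read in each Dnmt3b+/+ library, 3, 1 and 3 reads in the libraries labelled Dnmt3b-/- and 0 reads in each Dnmt3b CI/CI library. With 3 or fewer reads in each library no fold was computed, and the gene did not enter the test.

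The ICF genes split. Hells, the remodeler, was measured at 4.79, 3.22 and 4.01 FPKM in Dnmt3b+/+ embryos and at 5.61, 7.01 and 7.24 FPKM in embryos labelled Dnmt3b-/-. All of the latter lay above the former, by 0.72 ± 0.14 (SE) on the log2 scale or 1.65-fold (limma, adjusted p = 0.00977). Cdca7, its activator, measured 18.3, 13.2 and 15.8 FPKM in Dnmt3b+/+ and 18.0, 24.1 and 24.0 FPKM in embryos labelled Dnmt3b-/-. Here embryo 1 of the second set fell just below embryo 1 of the first, so the sets overlapped. The log2 difference of 0.48 ± 0.14 (SE), or 1.39-fold, passed the test (limma, adjusted p = 0.0376), but the call was lost under 12 of 20 alternatives. It was lost without Dnmt3b+/+ embryo 2 (0.36, adjusted p = 0.101) or 3 (0.49, 0.0885), without embryo 2 (0.41, 0.124) or 3 (0.41, 0.118) labelled Dnmt3b-/-, and without Dnmt3b CI/CI embryo 1, 2 or 3 (adjusted p = 0.0589, 0.0538 and 0.0578). Zbtb24, the transcription factor of the group, was nearly level, at 2.16, 2.19 and 2.13 FPKM in Dnmt3b+/+ and 1.91, 2.01 and 2.14 FPKM in embryos labelled Dnmt3b-/-. Its log2 difference was −0.09, with a 95% interval from −0.29 to 0.11 (limma, adjusted p = 0.464), and it was 0.06 after quantile normalization.

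**Figure D2:**
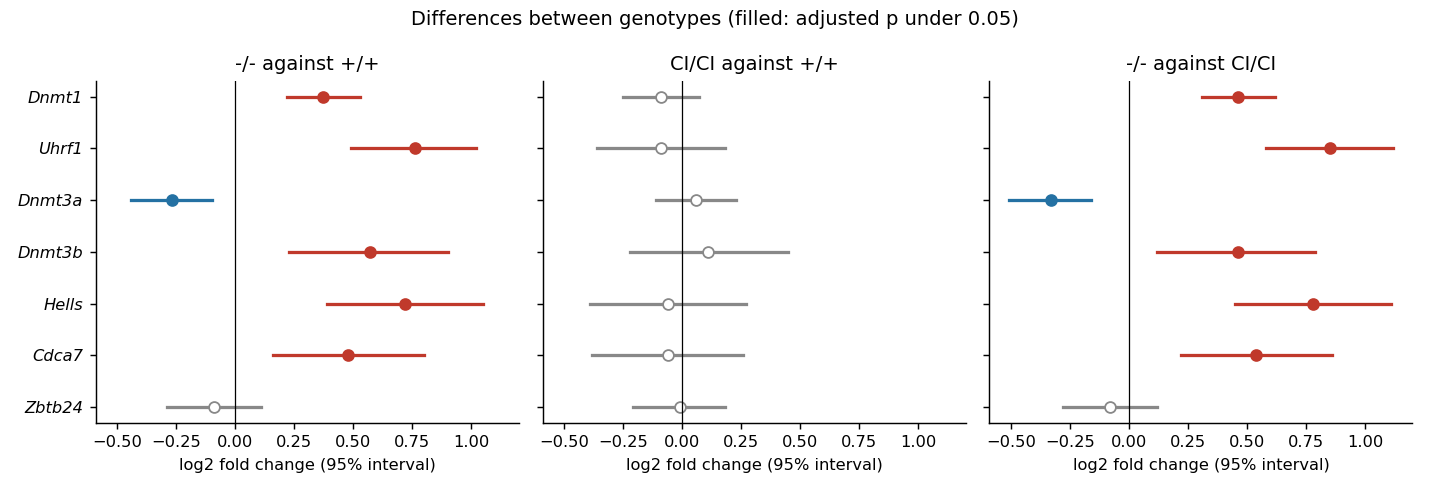
Log2 fold change of the 7 tested members (x axis, on the log2(FPKM + 0.1) scale) with its 95% interval, for 3 comparisons of genotype labels with 3 embryos each; filled points passed an adjusted p under 0.05, red for higher and blue for lower. The left and right panels have 6 filled points each, and in the middle panel, Dnmt3b CI/CI against Dnmt3b+/+, all 7 points are open and lie between −0.09 and 0.11.

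In the comparison of Dnmt3b CI/CI with Dnmt3b+/+ embryos, none of the 7 members passed the limma test, where 0.144% of all tested genes did. None of them had an unadjusted p under 0.05 either, where 5.25% of the tested genes did, and fits to the read counts (voom) called 0 members. At shares this small, finding none among 7 genes does not set the members apart. Dnmt1 measured 24.5, 22.7 and 24.3 FPKM in Dnmt3b CI/CI, Uhrf1 27.3, 26.2 and 27.6 FPKM, and Dnmt3a 15.7, 16.8 and 14.7 FPKM. Hells stood at 3.74, 3.70 and 3.91 FPKM, Cdca7 at 15.4, 14.1 and 15.7 FPKM and Zbtb24 at 1.97, 2.37 and 2.09 FPKM. Each of these sets, like that of Dnmt3b, overlapped the Dnmt3b+/+ embryos, where 13.2% of the tested genes did not. The intervals bound what could have been missed. For Dnmt1 the log2 difference of −0.09 had a 95% interval from −0.25 to 0.07, for Uhrf1 that of −0.09 had one from −0.36 to 0.18, and for Dnmt3a that of 0.06 had one from −0.11 to 0.23. The targeted gene, Dnmt3b, had a wider interval, from −0.22 to 0.45 around 0.11. The adjusted p-values of the 7 members ran from 0.949 to 0.989.

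Embryos labelled Dnmt3b-/- were also set against Dnmt3b CI/CI embryos, which sets the null label against the allele made to lack catalytic activity. This comparison uses the same 3 embryos labelled Dnmt3b-/- as the first. Here 5 of the 7 members were higher and 1 was lower, where 27.9% of all tested genes passed, 9.70% being higher and 18.2% lower. Of all passing genes 34.8% were higher, and 52.2% after median-of-ratios scaling and 55.5% after quantile normalization. The log2 difference was 0.46 for Dnmt1 (adjusted p = 0.00266), 0.85 for Uhrf1 (0.00213), 0.78 for Hells (0.00617), 0.54 for Cdca7 (0.0238) and 0.46 for Dnmt3b (0.0488), all by limma. For Dnmt3a it was −0.33 (adjusted p = 0.014), and for Zbtb24 −0.08, with a 95% interval from −0.28 to 0.12. The embryos of the 2 genotypes did not overlap for any of the 6, Cdca7 included, where 16.7% of the tested genes lay higher and 29.5% lower without overlap. Without embryo 2 or 3 labelled Dnmt3b-/-, or without Dnmt3b CI/CI embryo 2, the count fell from 6 to 3 as Dnmt3a, Dnmt3b and Cdca7 missed the threshold, with adjusted p-values from 0.0519 to 0.154. The share of all tested genes that passed was then 16.5%, 16.1% and 17.3%, and 15.8% and 16.4% without Dnmt3b CI/CI embryo 1 or 3. Dnmt3b also missed it without Dnmt3b CI/CI embryo 1 (0.125) or 3 (0.0733) or Dnmt3b+/+ embryo 3 (0.0718), and Cdca7 without Dnmt3b CI/CI embryo 1 (0.0617) or 3 (0.0564).

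The members differed far more from one another than between genotypes. In Dnmt3b+/+ embryos the order of mean levels per length was Uhrf1 (29.0 ± 4.36 FPKM, SD, n = 3), Dnmt1 (25.4 ± 1.47), Cdca7 (15.8 ± 2.51), Dnmt3a (15.0 ± 0.939), Hells (4.01 ± 0.785), Zbtb24 (2.16 ± 0.0284), Dnmt3b (1.97 ± 0.319) and Dnmt3l at the floor. Within this order Uhrf1 and Dnmt1, Cdca7 and Dnmt3a, and Zbtb24 and Dnmt3b overlapped between embryos, and the other neighbours did not. In embryos labelled Dnmt3b-/- no neighbours overlapped, and Dnmt3b (2.97 ± 0.458 FPKM) stood above Zbtb24 (2.02 ± 0.112). In Dnmt3b CI/CI embryos Dnmt3a (15.7 ± 1.02 FPKM) and Cdca7 (15.1 ± 0.832) overlapped, as did Zbtb24 (2.14 ± 0.208) and Dnmt3b (2.12 ± 0.178).

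Because FPKM is per length, the Dnmt genes could be summed within each embryo, which removes any scaling between embryos. Dnmt1 made up 59.5%, 60.3% and 59.9% of the sum in Dnmt3b+/+ embryos, and 65.6%, 69.4% and 69.1% in those labelled Dnmt3b-/-. Dnmt3a went the other way, from 35.5%, 35.6% and 35.3% to 29.1%, 24.3% and 24.1%. Dnmt3b held a small part, 5.02%, 4.12% and 4.74% against 5.29%, 6.30% and 6.75%. For each of the 3 enzymes the 2 sets did not overlap. The mean differences were 8.14 percentage points for Dnmt1, −9.65 for Dnmt3a and 1.49 for Dnmt3b, each with an exact two-sided permutation p of 0.1, the smallest that 3 embryos against 3 allow. With Dnmt3l, 12 such tests were made, and no p-value could pass a threshold of 0.05. Shares within an embryo add up to a fixed total, so a larger part for Dnmt1 leaves less for the others. The differences of the enzymes are therefore not separate results. Dnmt1 held 58.0%, 54.8% and 58.8% in Dnmt3b CI/CI embryos, all below Dnmt3b+/+ (a difference of −2.71 percentage points, exact permutation p = 0.1, or −1.51 without Dnmt3b CI/CI embryo 2), while the shares of Dnmt3a (37.1%, 40.4% and 35.6%) and Dnmt3b (4.89%, 4.78% and 5.62%) overlapped those of Dnmt3b+/+ embryos. The sum itself was 42.4 ± 2.72 FPKM (SD, n = 3) in Dnmt3b+/+, 48.4 ± 1.77 in embryos labelled Dnmt3b-/- and 41.7 ± 0.469 in Dnmt3b CI/CI.

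**Figure D3:**
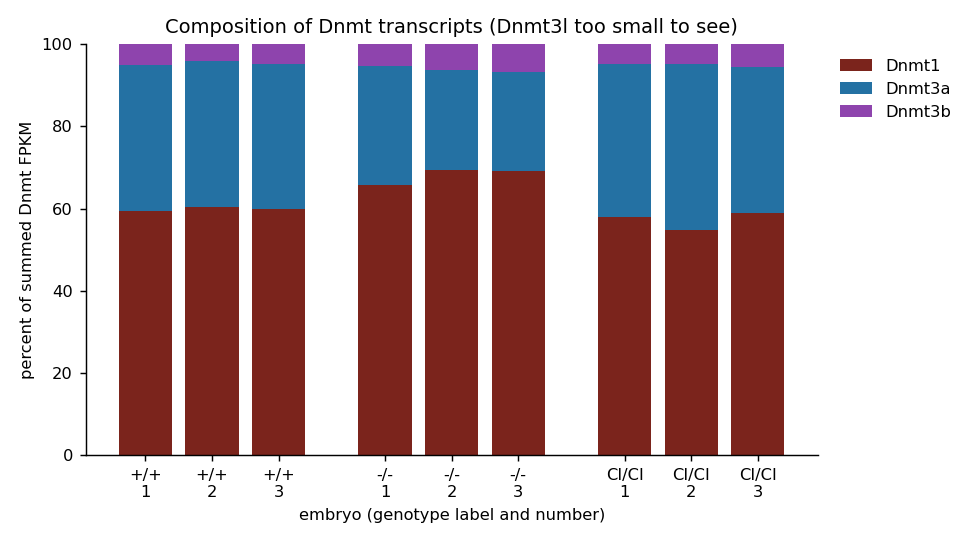
Percent of the summed FPKM of Dnmt1, Dnmt3a, Dnmt3b and Dnmt3l (y axis, 0 to 100) taken by each gene in each of the 9 embryos (x axis, genotype label and embryo number). The Dnmt1 segment is 65.6% to 69.4% in the embryos labelled Dnmt3b-/- and 54.8% to 60.3% in the other 6.

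Dnmt1, Uhrf1, Hells and Cdca7 are known to be high in dividing cells, so they were set beside 30 genes of DNA replication and S phase and 16 of mitosis. In embryos labelled Dnmt3b-/-, 22 of the 30 replication genes were higher than in Dnmt3b+/+ and none lower, with a median log2 difference of 0.49, and 14 of the 16 mitosis genes were higher and none lower, with a median of 0.62. Over all tested genes the median was −0.07, with 9.41% higher and 16.4% lower. Examples were Rrm2, a subunit of ribonucleotide reductase (0.95, adjusted p = 0.00966), Mcm10 (0.76, 0.0218) and Fen1 (0.68, 0.0113) of the replication machinery, and the mitotic genes Bub1 (0.78, 0.0252) and Kif20a (0.75, 0.00541), all by limma. None of the 46 genes passed in Dnmt3b CI/CI against Dnmt3b+/+, where 0.144% of all tested genes did. The number of replication genes that were higher fell to 14 without Dnmt3b+/+ embryo 2, and to 6 and 8 without embryo 2 or 3 labelled Dnmt3b-/-. For mitosis genes it fell to 9 without Dnmt3b+/+ embryo 2 or 3, and to 6 and 8 without embryo 2 or 3 labelled Dnmt3b-/-. Under the alternative settings that kept all embryos of these 2 groups, the lowest numbers were 10 replication genes and 8 mitosis genes.

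The order of the embryos within each genotype was compared between the members and these lists. Among Dnmt3b+/+ embryos the mean log2 level of the replication list was 3.14, 2.71 and 3.03, and of the mitosis list 3.83, 3.31 and 3.70, so that embryo 1 was highest and embryo 2 lowest. Dnmt1, Dnmt3a, Dnmt3b, Uhrf1, Hells and Cdca7 all had the same order. Zbtb24 did not, and its highest embryo was 1.03 times its lowest. Among embryos labelled Dnmt3b-/-, number 1 was lowest in both lists (3.25, 3.55 and 3.52 for replication) and in Dnmt1, Dnmt3b, Uhrf1, Hells, Cdca7 and Zbtb24, and it was the highest in Dnmt3a. Among Dnmt3b CI/CI embryos, number 2 was lowest in both lists (2.95, 2.87 and 2.96 for replication) and in Dnmt1, Dnmt3b, Uhrf1, Hells and Cdca7, but highest in Dnmt3a and Zbtb24.

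**Figure D4:**
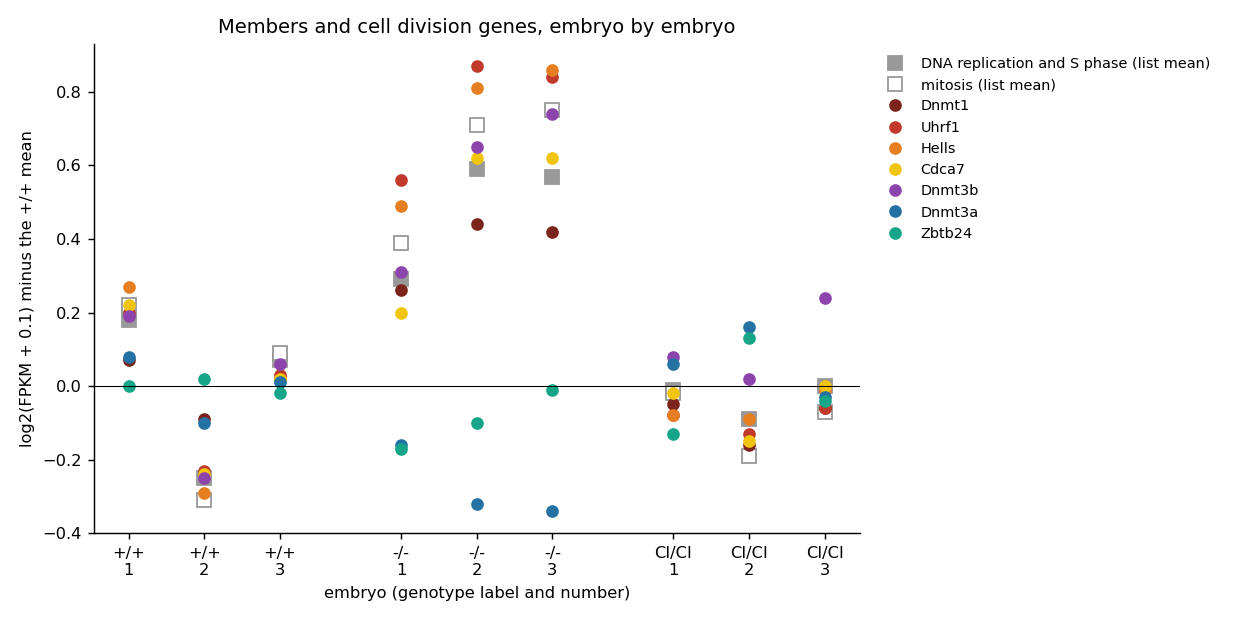
Level of 7 members (circles) and mean of the replication list (filled squares) and mitosis list (open squares) in each of the 9 embryos (x axis, genotype label and embryo number), as log2(FPKM + 0.1) minus the mean of the Dnmt3b+/+ embryos (y axis). In the embryos labelled Dnmt3b-/- the circles of Dnmt1, Uhrf1, Hells, Cdca7 and Dnmt3b lie from 0.20 to 0.87, as do both squares, whereas Dnmt3a and Zbtb24 lie at or below −0.01.

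Each member was therefore also expressed relative to the mean of the replication list in the same embryo. On this scale the log2 difference between embryos labelled Dnmt3b-/- and Dnmt3b+/+ was −0.11 for Dnmt1, 0.09 for Dnmt3b and −0.00 for Cdca7, of which only Dnmt3b had sets that did not overlap. The value of Dnmt1 was −0.03 without Dnmt3b+/+ embryo 2, and that of Dnmt3b was 0.04 without embryo 3 labelled Dnmt3b-/-. Uhrf1 stayed higher by 0.28 and Hells by 0.24, and Dnmt3a was lower by 0.75 and Zbtb24 by 0.57 (log2 differences of −0.75 and −0.57), each with sets that did not overlap and an exact permutation p of 0.1, the smallest possible. The replication genes themselves had log2 differences from 0.02 to 0.95, a range that takes in Uhrf1 (0.76) and Hells (0.72) on the deposited scale. Zbtb24 was nearly level on that scale (−0.09), so its −0.57 mainly restates the higher level of the list. Against the mitosis list the differences were 0.14 for Uhrf1 and 0.10 for Hells, −0.89 for Dnmt3a and −0.71 for Zbtb24, and those of Dnmt1 (−0.24) and Dnmt3b (−0.05) had overlapping sets. Cdca7 was lower against that list (−0.14), without overlap (exact permutation p = 0.1). For Dnmt3b CI/CI embryos, Dnmt3b relative to the replication list was 0.14 higher than in Dnmt3b+/+ and Uhrf1 was lower (−0.06), both without overlap (exact permutation p = 0.1). Against the mitosis list Dnmt3b was 0.20 higher, again without overlap, whereas Uhrf1 was level (−0.00) and overlapped. These are part of 42 tests of 3 embryos against 3, none of which could pass a threshold of 0.05, and what share of a difference goes with cell division was not tested.

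Lists of cell type markers were set beside the members. For embryos labelled Dnmt3b-/- against Dnmt3b+/+, 25.8% of all tested genes passed, 9.41% being higher and 16.4% lower. Neuronal markers (10 genes) summed to 274, 544 and 349 FPKM in Dnmt3b+/+ embryos 1, 2 and 3 and to 484, 249 and 210 FPKM in those labelled Dnmt3b-/-, which is the reverse of the order of Hells, Uhrf1 and Cdca7 within Dnmt3b+/+ and has its highest value in the embryo labelled Dnmt3b-/- where they were lowest. In the comparison of these 2 groups 1 neuronal gene was lower, with a median log2 difference of −0.49. The count was 6 without embryo 1 labelled Dnmt3b-/-, and 0 without embryo 2 or 3 of that label or without Dnmt3b+/+ embryo 2 or 3. Of 8 cartilage genes, 6 were lower, and the list summed to 82.9 to 138 FPKM against 151 to 223 FPKM. Of the other lists, 2 of 10 erythroid genes and 1 of 8 neural progenitor genes were higher, 2 of 8 muscle genes and 1 of 6 hepatocyte genes were lower, and 1 of 5 tested trophoblast genes was higher and 1 lower. Erythroid genes summed to 7001 FPKM in embryo 2 labelled Dnmt3b-/- and to 2129 to 3971 FPKM in the other 8 embryos. Primordial germ cell markers had 2 of 8 tested genes higher and 1 lower, with sums of 8.59 to 10.3 FPKM against 7.49 to 7.80 FPKM. Of the 8 log2 differences, 3 were positive and 5 negative. Most of the gap between the sums was Ddx4, with means of 1.86 FPKM in embryos labelled Dnmt3b-/- and 0.0636 FPKM in Dnmt3b+/+. Ddx4 also belongs to the list of germline genes silenced by promoter methylation, so the sum does not measure germ cells. Single embryos moved most of these small counts. Erythroid genes higher fell to 1 without Dnmt3b+/+ embryo 3 or embryo 3 labelled Dnmt3b-/-, and neural progenitor genes to 0 without either of these or Dnmt3b+/+ embryo 1 (2 without Dnmt3b+/+ embryo 2). Muscle genes lower fell to 0 without embryo 2 or 3 of either genotype, trophoblast genes lower to 0 without any 1 embryo other than embryo 1 labelled Dnmt3b-/-, and hepatocyte genes lower rose to 3 without Dnmt3b+/+ embryo 2. Germ cell genes higher fell to 1 without embryo 2 of either genotype or Dnmt3b+/+ embryo 3, and those lower became 0 without embryo 3 of either genotype and 2 without embryo 1 labelled Dnmt3b-/-. Against Dnmt3b CI/CI, embryos labelled Dnmt3b-/- had 5 of 8 neural progenitor genes higher, with a median log2 difference of 0.65 (3 genes without embryo 3 labelled Dnmt3b-/- or Dnmt3b CI/CI embryo 1), where 9.70% of all tested genes were higher and 18.2% lower. In the same comparison 6 of 8 cartilage genes were lower, with a median of −1.17. In Dnmt3b CI/CI against Dnmt3b+/+ no neural progenitor gene passed, where 0.144% of all tested genes did. Of the 8, 5 lay lower without overlap between embryos, where 13.2% of the tested genes did not overlap, counting both directions. The part of these cell types in the members' differences was not tested.

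The promoters of the 5 members that were higher in embryos labelled Dnmt3b-/- are shown, from 250 bases before to 50 after a transcript start (RefSeq, GRCm38.p6). All 8 members had at least 1 entry, 15 promoters in all. Dnmt1 had 3 entries and Uhrf1 had 2, of which the 1 with a match is shown for each, and the others held none. Capitals mark 8-base E2F sites (TTTCCCGC, TTTCGCGC, TTTGCCGC or TTTGGCGC, read on both strands) and, in Cdca7, the Zbtb24 motif CAGGACCT. E2F factors drive genes of the G1 to S transition.
Uhrf1 promoter: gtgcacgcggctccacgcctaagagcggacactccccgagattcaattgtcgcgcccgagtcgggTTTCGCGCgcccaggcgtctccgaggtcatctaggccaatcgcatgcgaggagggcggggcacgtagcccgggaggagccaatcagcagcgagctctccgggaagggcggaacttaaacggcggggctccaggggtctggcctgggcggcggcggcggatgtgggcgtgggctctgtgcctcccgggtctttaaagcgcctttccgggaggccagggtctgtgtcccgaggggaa
Hells promoter: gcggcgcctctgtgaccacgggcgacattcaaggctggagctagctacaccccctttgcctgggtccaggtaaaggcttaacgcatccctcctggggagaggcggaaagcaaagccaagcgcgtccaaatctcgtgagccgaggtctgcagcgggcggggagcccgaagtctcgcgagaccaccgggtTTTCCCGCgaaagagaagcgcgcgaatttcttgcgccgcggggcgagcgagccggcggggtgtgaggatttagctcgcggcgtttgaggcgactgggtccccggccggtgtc
Dnmt1 promoter: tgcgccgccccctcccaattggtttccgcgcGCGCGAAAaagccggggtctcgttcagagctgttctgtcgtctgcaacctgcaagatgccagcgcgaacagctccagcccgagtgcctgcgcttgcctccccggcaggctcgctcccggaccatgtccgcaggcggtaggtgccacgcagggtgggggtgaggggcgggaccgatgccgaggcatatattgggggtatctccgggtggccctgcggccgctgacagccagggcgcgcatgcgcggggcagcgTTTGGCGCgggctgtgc
Cdca7 promoter: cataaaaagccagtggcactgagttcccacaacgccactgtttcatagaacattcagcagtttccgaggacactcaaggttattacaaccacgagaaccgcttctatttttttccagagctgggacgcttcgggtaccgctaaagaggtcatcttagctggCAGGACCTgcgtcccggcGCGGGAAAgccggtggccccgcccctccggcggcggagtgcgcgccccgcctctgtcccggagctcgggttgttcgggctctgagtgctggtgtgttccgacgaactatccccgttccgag
Dnmt3b promoter: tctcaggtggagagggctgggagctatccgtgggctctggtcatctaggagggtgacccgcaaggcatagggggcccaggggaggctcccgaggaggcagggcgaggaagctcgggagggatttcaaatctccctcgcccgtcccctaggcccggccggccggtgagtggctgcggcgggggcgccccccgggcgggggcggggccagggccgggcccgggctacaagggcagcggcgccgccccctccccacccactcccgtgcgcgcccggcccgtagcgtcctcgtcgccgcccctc
This Uhrf1 promoter lies at chr17:56304063-56304362 on the plus strand, and its E2F match begins 185 bases before the start. That of Hells, at chr19:38930740-38931039 on the plus strand, has its match 62 bases before the start. The Dnmt1 promoter shown, at chr9:20952574-20952873 on the minus strand, holds 2 matches, 1 beginning 219 bases before the start on the opposite strand and 1 at base 34 after it. The Cdca7 promoter, at chr2:72475969-72476268 on the plus strand, has an E2F match on the opposite strand 71 bases before the start and the Zbtb24 motif 89 bases before it, without overlap. No such letters stand in the promoter of Dnmt3b, which was higher too, at chr2:153649199-153649498 on the plus strand, or in those of Dnmt3a, Dnmt3l and Zbtb24. An E2F match was found in 2.26% of all 32851 promoters and in 2.6% of 27025 genes, and in 10 of the 23 replication genes and 1 of the 14 mitosis genes that had an entry. The Zbtb24 motif was found in 1.99% of all promoters. Median GC content was 52.7% over all promoters, against 59.3% to 69.7% in the 4 shown with an E2F match and 76% in that of Dnmt3b. The shares of promoters with a match were not adjusted for GC content. The motifs were chosen after the sequences and the values had been seen, and a match describes letters only.

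Among close relatives of the members, 1 of the 7 tested was higher and 1 lower in embryos labelled Dnmt3b-/- than in Dnmt3b+/+, with a median log2 difference of 0.01. Of all tested genes 25.8% passed, 9.41% being higher and 16.4% lower, so these counts lie near the share over all genes. Uhrf2, the paralogue of Uhrf1, measured 7.76, 6.98 and 6.96 FPKM in Dnmt3b+/+ and 8.02, 8.27 and 8.42 FPKM in embryos labelled Dnmt3b-/-, a log2 difference of 0.19 ± 0.06 (SE) that did not pass (limma, adjusted p = 0.0507). Cdca7l, the paralogue of Cdca7, had 4.12, 2.75 and 3.71 FPKM and 3.86, 5.67 and 5.68 FPKM, a pattern of embryos like that of Cdca7, with a log2 difference of 0.51 ± 0.18 (SE, adjusted p = 0.0705). The RNA methyltransferase Trdmt1 had a log2 difference of −0.19 ± 0.15 (SE, adjusted p = 0.379). Among remodelers of the ISWI family, Smarca5 was higher (0.46, adjusted p = 0.00222) and Smarca1 lower (−0.42, adjusted p = 0.0187). The number higher was 2 without Dnmt3b+/+ embryo 1 and after median-of-ratios scaling, and 3 without embryo 1 labelled Dnmt3b-/-. Smarca1 did not pass after quantile normalization, without Dnmt3b+/+ embryo 3 or without embryo 2 labelled Dnmt3b-/-. Dnmt3c, the germline methyltransferase copied from Dnmt3b and lying just beyond it, had 0 to 2 reads in all 9 libraries.

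Of 29 partners and regulators of DNA methylation, 9 were higher and 3 lower in embryos labelled Dnmt3b-/- than in Dnmt3b+/+, with a median log2 difference of 0.07. For this and the following lists, 9.41% of all tested genes were higher and 16.4% lower. The higher ones with the largest differences were Suv39h2, a histone H3K9 methyltransferase (0.82, adjusted p = 0.00306), Pclaf, a partner of PCNA that Uhrf1 ubiquitylates (0.82, 0.0114), Pcna, the clamp that carries Dnmt1 at the fork (0.58, 0.0106), and Hdac1, a histone deacetylase (0.42, 0.0171), all by limma. Zfp57 and Zfp445, which protect imprints, and Nsd1, which writes H3K36 methylation, were lower (−0.31, −0.22 and −0.29, with adjusted p-values of 0.0463, 0.0255 and 0.0102). Without embryo 2 or 3 labelled Dnmt3b-/- the higher ones numbered 5, and the lower ones numbered 1 without either of these or any 1 of the Dnmt3b+/+ embryos, and 1 after median-of-ratios scaling. In the cycle that supplies methyl groups, 5 of 21 tested genes were higher and none lower (1 lower after quantile normalization), with a median of 0.08. These were Ahcy, which removes the inhibitory product of methyl transfer (0.69, adjusted p = 0.00203), Mthfd1 (0.49, 0.0322), Shmt1 (0.48, 0.0455), Mtrr (0.36, 0.0149) and Shmt2 (0.28, 0.0184), all by limma. Their number was 2 and 3 without Dnmt3b+/+ embryo 2 or 3, and 10, 1 and 3 without embryo 1, 2 or 3 labelled Dnmt3b-/-. The opposing genes, for demethylation and methyl-CpG binding, had 4 of 10 lower and none higher (2 higher after median-of-ratios scaling), with a median of −0.22. Among the lower ones were Zbtb4, a methyl-CpG binding zinc finger protein (−1.31, adjusted p = 0.00353), and the dioxygenases Tet2 (−0.51, 0.0056) and Tet3 (−0.40, 0.00541). None of the tested genes of these lists passed in Dnmt3b CI/CI against Dnmt3b+/+, where 0.144% of all tested genes did. Of 21 germline genes known or reported to be silenced by promoter methylation, 21 were higher in embryos labelled Dnmt3b-/- and 8 in Dnmt3b CI/CI, but some were picked from these same samples, so the count is not independent evidence of direction.

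The neighbourhood of Dnmt3b was described because the null allele came from another mouse line. Of 58 genes of the table that start within 1 Mb of it, 35 were tested. In embryos labelled Dnmt3b-/-, 6 were higher and 5 lower than in Dnmt3b+/+ (25.8% of all tested genes passed, 9.41% higher and 16.4% lower), with a median log2 difference of −0.03. In Dnmt3b CI/CI none passed, where 0.144% of all tested genes did. The nearest on the side before the gene, Commd7, 17 kb away, was lower (−0.22, adjusted p = 0.0464), as was Nol4l at 119 kb (−0.51, 0.00815), by limma. Id1 at 913 kb had the lowest adjusted p (8.8e-04, with a difference of 0.68). Mapre1, the nearest tested gene on the other side at 92 kb, had a difference of 0.11 (adjusted p = 0.122). The neighbours that passed thus moved in both directions around Dnmt3b, at 0.57.

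**Figure D5:**
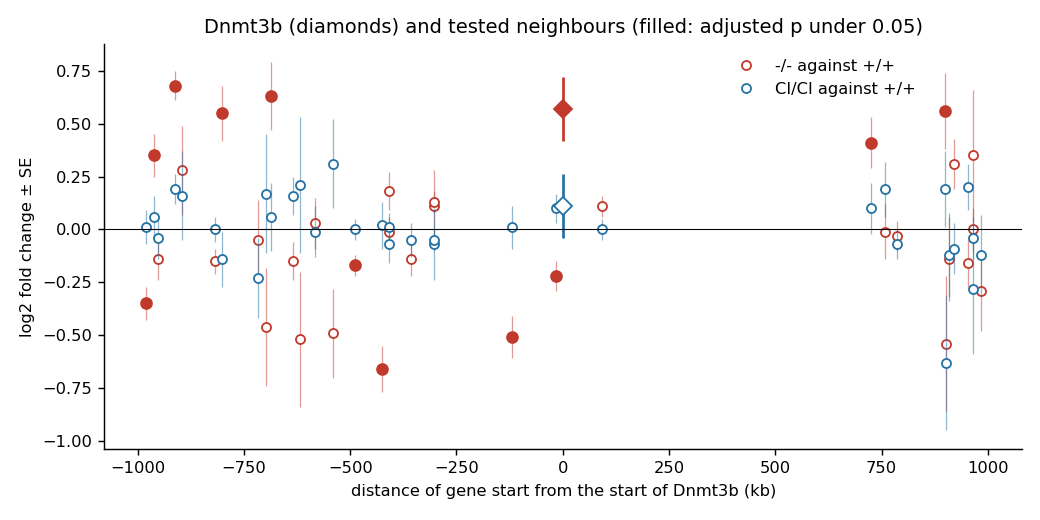
Log2 fold change ± SE (y axis) of Dnmt3b (diamonds at 0) and its 35 tested neighbours (circles) against the distance in kb of their starts from that of Dnmt3b (x axis), for embryos labelled Dnmt3b-/- (red) and Dnmt3b CI/CI (blue), each against Dnmt3b+/+; filled symbols passed an adjusted p under 0.05. Red filled circles lie on both sides of 0, 6 above and 5 below, and no blue symbol is filled.

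For each member, the genes with the most similar pattern over the 9 embryos were found by Pearson r of log2(FPKM + 0.1) among 12796 genes with a mean of at least 1 FPKM. These are descriptions over 9 embryos, 3 of each genotype, in which all genes of an embryo come from the same library. Uhrf1 was most like Hmgb2 (r = 0.998), Cdca8 (0.995) and Cenpa (0.995), and Hells was among others like Haus3 (0.996) and Rrm2 (0.996). Cdca7 was most like Aurka (0.993), Mcm3 (0.991) and Cdca5 (0.991), and Dnmt1 like Eed (0.995), Ssbp1 (0.990) and Tpx2 (0.990). Dnmt3b was most like Cdc14b (0.987), Mogat2 (0.981) and Mns1 (0.981), and Dnmt3a like Rab22a (0.994), Sh3pxd2a (0.982) and Sned1 (0.976). Zbtb24 had no gene as close, the first being Zfp58 (0.885), Gm26965 (0.856) and AC124453.1 (0.843).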

How the data were processed

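Total RNA of 9 whole embryos was sequenced as paired-end reads. The authors aligned trimmed reads with STAR to mm10 (GRCm38), kept alignments of high mapping quality and quantified genes with SeqMonk, and deposited 1 table of FPKM values on the linear scale. Its annotation release is not given in the sources used here. The table has 34245 rows, 1 without a gene name, which was left out.

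A gene without reads holds a value worth 0.9 reads. Reads were worked back from FPKM, exon lengths of GENCODE M21 and the library totals, and came out whole (within 0.02 reads) in all 9 embryos for 91.5% of rows. They gave the depth and served an alternative fit.

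The main test (limma 3.58.1, R 4.3.3) took log2(FPKM + 0.1) of the 19397 genes that reached 0.1 FPKM in 3 or more embryos, with 3 genotypes in 1 model, a variance trend and Benjamini-Hochberg adjustment over all tested genes. A fold of at least 2, as in the study's methods, was used for a second count. A log2 difference on this scale understates changes of low genes. The embryos are separate animals. Shares and relative levels were compared by exact two-sided permutation. Scripts were tested on simulated data. Permutation tests used scipy 1.17.1, and tables pandas 2.3.3, in Python 3.11.15.

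The members and all gene lists were chosen with earlier results of these data known. Genes named from the lists were, among those passing in a comparison, up to 4 with the largest difference, plus all relatives of a member, some neighbours of Dnmt3b and the 3 genes most like each member; other genes were named after their values had been seen. Some genes that these rules name are not reported here. Alternatives were another pseudocount (0.01 or 1), no filter or a filter at 1 FPKM, median-of-ratios and quantile scaling, 2 groups only, no trend, a robust variance, a replicate block and leaving out each embryo; a voom fit of the reads was added after seeing the data. The bisulfite libraries and the lymphoma lines were not analysed here.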

Additional observations from a re-analysis of the deposited data

How the results depend on the processing

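The members that differed numbered 6 for embryos labelled Dnmt3b-/- against Dnmt3b+/+, and 3 with only those 2 groups in the fit (fewer samples, with 14.1% of all tested genes passing, against 25.8%), 3 to 6 when 1 embryo was left out, and 4 to 6 under the other settings, where no filter gave 4 with 10.9% of all genes passing. Against Dnmt3b CI/CI they numbered 6, and 3 to 6 when 1 embryo was left out. None passed in Dnmt3b CI/CI against Dnmt3b+/+ under any of 20 settings, where 0.0928% to 0.175% of all tested genes did.

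Embryo numbers were not taken to pair the samples, since in no comparison did every same-numbered pair correlate positively. Deviations of same-numbered embryos from their group means correlated at −0.21 on average for Dnmt3b-/- and Dnmt3b+/+, against 0.114 for other pairs, at −0.0956 (0.0517 for others) for Dnmt3b-/- and Dnmt3b CI/CI, and at 0.0459 (−0.0223 for others) for Dnmt3b CI/CI and Dnmt3b+/+, where single pairs ran from −0.0648 to 0.215. With the number as a replicate block 4 members passed in each comparison with Dnmt3b-/- (15.6% of all tested genes against Dnmt3b+/+ and 18.5% against Dnmt3b CI/CI), and 0 in that of Dnmt3b CI/CI with Dnmt3b+/+.

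Small differences changed sign. Zbtb24 for Dnmt3b-/- against Dnmt3b+/+ became 0.06 after quantile normalization, and against Dnmt3b CI/CI 0.00 after median-of-ratios scaling and 0.10 after quantile normalization. In Dnmt3b CI/CI against Dnmt3b+/+, Dnmt3b became −0.02 without Dnmt3b+/+ embryo 2, Uhrf1 0.01, Hells 0.07 and Cdca7 0.05 without Dnmt3b+/+ embryo 1, and Zbtb24 0.04 and 0.00 without Dnmt3b CI/CI embryo 1 or 3. Leaving out 1 embryo gave −0.14 to −0.06 for Dnmt1, 0.01 to 0.11 for Dnmt3a, −0.02 to 0.21 for Dnmt3b, −0.21 to 0.01 for Uhrf1, −0.21 to 0.07 for Hells, −0.18 to 0.05 for Cdca7 and −0.09 to 0.04 for Zbtb24. Of levels relative to the replication genes, with the mitosis list in their place, Dnmt3b for Dnmt3b-/- against Dnmt3b+/+ became −0.05, Cdca7 against Dnmt3b CI/CI −0.17, and Dnmt1, Hells and Cdca7 in Dnmt3b CI/CI against Dnmt3b+/+ 0.00, 0.03 and 0.03. With 1 embryo left out, Cdca7 for Dnmt3b-/- against Dnmt3b+/+ ran from −0.03 to 0.04 (0.01, 0.02 and 0.04 being reversals) and against Dnmt3b CI/CI down to −0.00. In Dnmt3b CI/CI against Dnmt3b+/+, Dnmt1 ran from −0.11 to 0.02, Hells from −0.05 to 0.01 and Zbtb24 from −0.08 to 0.15 (−0.08, −0.07 and −0.02 being reversals). The cause was not tested. The shares of Dnmt1, Dnmt3a and Dnmt3b kept their sign in each alternative run, and that of Dnmt3l was not varied. Depth limits Dnmt3l and Dnmt3c, at 3 or fewer reads in each library.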
